A study of Rattus norvegicus with 6 samples.

Results

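A group of 10 small GTPase genes were followed through chemically induced long-term potentiation (cLTP) of rat hippocampal cultures. They were the RGK genes Gem, Rem1, Rem2 and Rrad, the RASD genes Rasd1 and Rasd2, and Rheb, Rhob, Rnd1 and Rnd3. The 10 were taken by gene symbol, and each matched 1 of the 32883 rows of the deposited table. The cells were primary hippocampal neurons of Wistar rat pups at postnatal day 0, grown in culture to days 13 to 15 in vitro. The cultures hold neurons and glia, and the labels name no genotype. The cLTP group (n = 3) received 50 µM forskolin, an activator of adenylyl cyclase, 50 nM rolipram, an inhibitor of the PDE4 phosphodiesterases, and 200 µM picrotoxin, a blocker of GABA-A receptors. The control group (n = 3) received the solvent DMSO, which the cLTP group received too. How long the drugs were left on before harvest is not stated in the labels. Poly(A) RNA was sequenced, and the labels call the cultures biological replicates without saying whether they came from separate litters. The same culture numbers recur in both groups, and the labels do not state whether equal numbers mean the same culture. The p-values thus reflect only how much these 6 libraries varied, which may in part be technical.

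Small GTPases switch between a GTP-bound and a GDP-bound state and so turn signals on and off. The RGK proteins are an unusual branch: they bind the beta subunits of voltage-gated calcium channels and lower the calcium current, and they lack the lipid-anchored tail that most RAS relatives carry. RHEB activates the growth-regulating kinase complex mTORC1, RHOB acts on actin and on endosome traffic, and the RND proteins hardly hydrolyse GTP and oppose RHOA. Several of these genes are known from other work as genes that neurons switch on quickly after activity. The same RNA level in a culture can come from more cells or from more RNA per cell, which bulk libraries cannot tell apart.

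Promoter windows are shown for the 3 genes whose window carried TGACG, the core of the cyclic AMP response element (Rasd1, Rheb and Rhob), and for Rasd2, the relative of Rasd1, whose window carried none. The windows are from RefSeq, build GRCr8, and run from 250 bases before to 50 after the transcript start. They lie at chr10:45267633-45267932 on the minus strand (Rasd1), chr4:11013133-11013432 on the plus strand (Rheb), chr6:37085155-37085454 on the minus strand (Rhob) and chr19:13599778-13600077 on the plus strand (Rasd2). Capitals mark TGACG. Sequences read 5′ to 3′ on the gene's strand.
Rasd1: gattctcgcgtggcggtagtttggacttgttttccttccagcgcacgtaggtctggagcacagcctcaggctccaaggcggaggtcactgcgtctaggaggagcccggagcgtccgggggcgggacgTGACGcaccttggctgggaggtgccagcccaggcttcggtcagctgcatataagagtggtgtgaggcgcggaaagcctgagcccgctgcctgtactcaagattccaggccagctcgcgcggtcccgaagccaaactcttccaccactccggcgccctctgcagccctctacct
Rheb: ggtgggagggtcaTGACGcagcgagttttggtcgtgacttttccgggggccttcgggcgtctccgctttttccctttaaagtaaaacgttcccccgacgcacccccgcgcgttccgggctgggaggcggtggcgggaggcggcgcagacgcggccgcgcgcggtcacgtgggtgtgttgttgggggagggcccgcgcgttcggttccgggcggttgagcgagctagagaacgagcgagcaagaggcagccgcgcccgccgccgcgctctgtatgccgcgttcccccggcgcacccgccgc
Rhob: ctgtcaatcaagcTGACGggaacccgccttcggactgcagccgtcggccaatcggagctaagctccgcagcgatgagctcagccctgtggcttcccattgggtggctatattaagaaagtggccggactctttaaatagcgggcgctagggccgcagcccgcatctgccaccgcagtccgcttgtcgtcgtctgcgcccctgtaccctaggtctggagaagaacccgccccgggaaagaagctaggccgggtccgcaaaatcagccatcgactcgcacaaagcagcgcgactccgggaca
Rasd2: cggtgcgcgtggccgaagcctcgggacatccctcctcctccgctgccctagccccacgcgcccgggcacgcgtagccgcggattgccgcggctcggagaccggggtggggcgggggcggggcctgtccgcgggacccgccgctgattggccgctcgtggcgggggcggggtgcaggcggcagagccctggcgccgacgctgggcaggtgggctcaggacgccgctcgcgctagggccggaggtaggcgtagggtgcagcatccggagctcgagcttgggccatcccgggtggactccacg

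Windows were matched for 7 of the 10 genes (Rem1, Rem2, Rasd1, Rasd2, Rheb, Rhob and Rnd3). Both strands were searched for the full element TGACGTCA, for its core TGACG, which the full element contains, and for the AP-1 site TGANTCA. The first base of the core lay 123 bases upstream of the start in Rasd1 and 237 bases upstream in both Rheb and Rhob. The windows of Rem1, Rem2, Rasd2 and Rnd3 held no core. Among the genes called higher after cLTP, Rasd1, Rheb and Rhob had the core, Rem2 did not, and Gem had no window. A link between the core and the response was not tested. No window of the 7 held the full element or the AP-1 site. Among all 33469 windows, 21.2% held the core, 1.83% the full element and 7.33% the AP-1 site. The reads were counted on rn6, and the windows use GRCr8. A match describes letters in a window and not binding, and this window covers only a short stretch around 1 annotated start.

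The libraries held between 10668973 and 12776185 reads assigned to genes, and 3 reads corresponded to a normalised read count of 2.63 to 3.38. All 8 neuron markers were detected, with a summed normalised read count of 57727 to 69199 in DMSO and 57750 to 73408 in cLTP libraries, and the 7 astrocyte markers summed to 118761 to 194211 over all 6. No neuron, astrocyte, oligodendrocyte lineage, microglia, fibroblast or muscle marker passed the test between the groups. With the culture number as a block, 12.9% of all genes were higher and 10.7% lower. In that fit 3 neuron markers, 2 astrocyte markers and 1 oligodendrocyte lineage marker were higher and 1 astrocyte marker was lower. That lineage marker, Olig2, also passed without culture 3 of both groups (adjusted p = 0.0485 in limma). Of 6 endothelial and mural markers tested, Pdgfrb fell, and the summed level of that list went from 324 to 424 in DMSO to 116 to 159 in cLTP; without Pdgfrb it was 44.8 to 57.1 and 46.2 to 54.9. Culture 3 stood apart in both groups. Its astrocyte markers summed to 118761 (DMSO) and 137453 (cLTP) against 182623 to 194211 in the other cultures, and its microglia markers to 444 and 470 against 3.38 to 17.1.

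After cLTP, 5 of the 10 genes were higher, namely Gem, Rem2, Rasd1, Rheb and Rhob, and Rnd1 was lower. Rem1, Rrad, Rasd2 and Rnd3 did not pass the test. This is 5 higher and 1 lower beside 5.71% of all 17315 genes tested that were higher and 3.31% that were lower (limma on log2(value + 1), Benjamini-Hochberg adjusted p under 0.05 over all genes). The balance over all genes depended on scaling: 988 higher and 573 lower as deposited became 823 and 1322 with libraries scaled to equal totals, which shifted the median log2 change to -0.11, and there 4 of the 10 genes were higher (without Rem2) and 1 lower. Since the 10 genes were chosen with earlier results of these data known, that count describes them and is not a test of the group. With the culture number as a replicate block, Rrad joined the higher genes, for 6 higher and 1 lower beside 12.9% and 10.7% of all genes. Count tests on the reads recovered from the table found 5 higher and 1 lower in edgeR, beside 11.5% of genes called in either direction, and 6 higher (with Rnd3) and 1 lower in DESeq2, beside 10.8%.

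**Figure D1:**
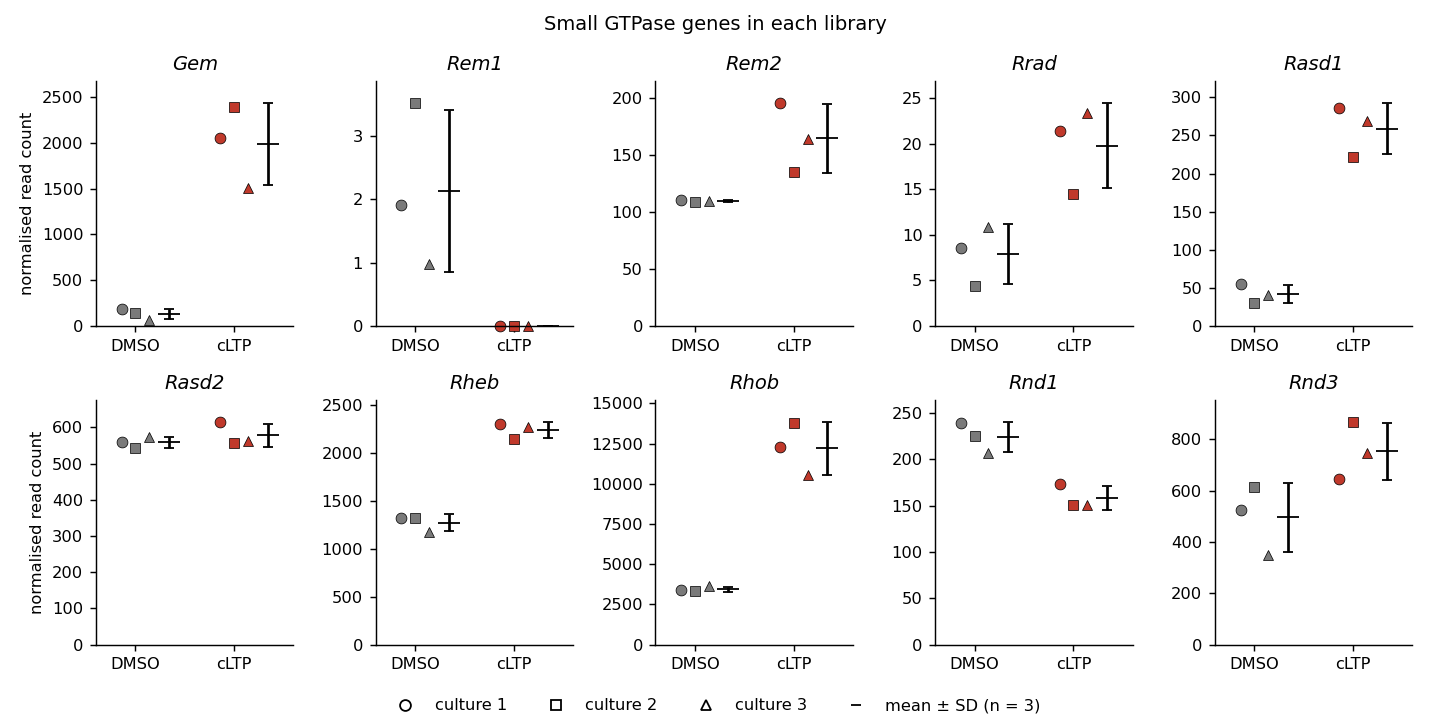
Normalised read count (y axis, from 0) of each of the 10 genes in the 3 DMSO and 3 cLTP libraries; the marker shape gives the culture number, and the bar beside each group its mean ± SD (n = 3). Gem, Rasd1 and Rhob show wide gaps between the groups, Rasd2 shows overlapping groups, and Rem1 is at 0 in all 3 cLTP libraries.

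Gem (ENSRNOG00000015160), whose protein binds calcium channel beta subunits, showed the largest increase of the 10. Its normalised read counts were 183, 147 and 69.9 in the DMSO libraries of cultures 1, 2 and 3, against 2046, 2394 and 1507 in their cLTP libraries. Culture 3 was the lowest library in each group, as were its astrocyte marker sums, and the part of the cell makeup in this was not tested. No cLTP library came near the DMSO range. The level rose from 133 ± 57.6 to 1982 ± 447 (SD, n = 3), a log2 fold change of 3.97 (SE 0.35; 15.7-fold, 95% interval 8.93 to 27.5; limma adjusted p = 0.000433). This placed Gem at rank 24 of the 17315 tested genes ordered by log2 fold change. Taken culture by culture, the fold was 11.1 in culture 1, 16.2 in culture 2 and 21.3 in culture 3. Without culture 3 of both groups the log2 fold change was 3.75 (adjusted p = 1.8e-07).

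Rem2 (ENSRNOG00000011646), an RGK gene known in rodent neurons for roles in synapse formation and dendrite branching, rose much less. It was at 110, 109 and 109 in the DMSO libraries, which were nearly identical, and at 195, 135 and 164 in the cLTP libraries. The DMSO values rest on 116, 124 and 111 reads, so their small SD may understate the true spread. The groups did not overlap, and cLTP 2 lay closest to the controls. The mean went from 110 ± 0.768 to 165 ± 30.2, a log2 fold change of 0.57 (SE 0.15; 1.48-fold, interval 1.18 to 1.86; limma adjusted p = 0.0446). The call was close to the threshold: it was lost without DMSO 1 (0.13), DMSO 2 (0.127), DMSO 3 (0.0754), cLTP 1 (0.156) or cLTP 3 (0.104), without culture 3 of both groups (0.0929) and when libraries were scaled to equal totals (0.0871). In the block fit its adjusted p was 0.00196.

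Rrad (ENSRNOG00000011901), named for its link to muscle and diabetes and studied mainly in heart and muscle, was near the lower end of what these libraries could measure. It had 9, 5 and 11 reads in DMSO, against 19, 14 and 23 reads after cLTP. Every cLTP library was above every DMSO library, but by few reads. The normalised level was 7.93 ± 3.27 in DMSO and 19.8 ± 4.67 in cLTP, with a log2 fold change of 1.27 (SE 0.37; 2.41-fold, interval 1.35 to 4.27) that missed the threshold (limma adjusted p = 0.0701). With the replicate block it passed (0.00544), and it passed without DMSO 3 (0.0413). The 7 muscle markers, 1 of them at 0 in all libraries, summed to 103 to 216 in DMSO and 109 to 232 in cLTP libraries, with overlapping ranges.

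Rem1 (ENSRNOG00000007567) was barely detected. It had 2, 4 and 1 reads in DMSO 1, 2 and 3 and 0 in each cLTP library, where 0 reads allow up to 3, or a normalised count of 3.05 to 3.38. Both groups were thus at or near that limit, no fold is given, and the gene did not pass (limma adjusted p = 0.144). Rem1 reached the mean of 1 needed for testing through its DMSO reads alone.

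Rasd1 (ENSRNOG00000003348), also called Dexras1 for its induction by the glucocorticoid dexamethasone, encodes a RAS relative that links the neuronal nitric oxide synthase to G protein signalling. Its DMSO counts were 55.2, 30.7 and 40.4, and its cLTP counts 286, 222 and 269. The groups were far apart, with a smaller relative spread after cLTP than before. The rise from 42.1 ± 12.3 to 259 ± 33.3 gave a log2 fold change of 2.62 (SE 0.21; 6.16-fold, interval 4.43 to 8.57; limma adjusted p = 7.41e-05), rank 98 of all tested genes. By culture the fold was 5.11, 7.02 and 6.52.

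Rasd2 (ENSRNOG00000014761), which encodes the striatum-enriched RAS relative Rhes, had counts of 559, 543 and 573 with DMSO, against 615, 558 and 563 after cLTP. These ranges overlapped. The estimated log2 difference of 0.05 had a 95% interval of -0.13 to 0.23 (limma adjusted p = 0.797), so a change larger than 1.17-fold upward or below 0.915-fold lay outside the interval. The sign turned under equal totals (-0.07) and under quantile normalization (-0.0031).

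Rheb (ENSRNOG00000050578), whose protein switches on mTORC1, had DMSO counts of 1322, 1326 and 1174 and cLTP counts of 2306, 2145 and 2273. Both groups were tight, and the lowest cLTP library was well above the highest DMSO library. The level rose from 1274 ± 86.8 to 2242 ± 85, a log2 fold change of 0.82 (SE 0.08; 1.76-fold, interval 1.56 to 1.99; limma adjusted p = 0.00024), rank 964.

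Rhob (ENSRNOG00000021403), an endosomal small GTPase whose gene is a known early-response gene, was at 3370, 3299 and 3617 with DMSO, against 12303, 13810 and 10529 after cLTP. The lowest cLTP library was far above the highest DMSO library, and in this fit, without the block, Rhob had the lowest adjusted p of the 10 genes. With the block Rasd1 (5.76e-11) and Rheb (3.26e-09) lay below Rhob (0.000124), and without culture 3 of both groups Gem (1.82e-07) lay below Rhob (5.26e-07). The mean went from 3429 ± 167 to 12214 ± 1642, a log2 fold change of 1.82 (SE 0.11; 3.54-fold, interval 2.99 to 4.20; limma adjusted p = 1.39e-05), rank 233. The 3 cultures gave folds of 3.65, 4.18 and 2.91.

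Rnd1 (ENSRNOG00000059857), an RND protein known for loosening actin-based adhesion and for signalling from plexin receptors, was the 1 gene of the 10 called lower. Its counts were 240, 226 and 207 with DMSO, against 174, 150 and 151 after cLTP, without overlap. The mean dropped from 224 ± 16.5 to 158 ± 13.4 (0.707-fold, interval 0.593 to 0.843; log2 fold change -0.50, SE 0.11; limma adjusted p = 0.0245). Paired by culture number, which the labels do not state as a pairing, it was at 0.725, 0.668 and 0.729 of the control. The call was lost without DMSO 1 (0.113), DMSO 2 (0.0894), cLTP 2 (0.0834) or cLTP 3 (0.0703).

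Rnd3 (ENSRNOG00000004624), an RND relative of Rnd1, was at 524, 615 and 348 with DMSO, against 645, 869 and 747 after cLTP. The lowest cLTP library was only just above the highest DMSO library, and DMSO 3 was the lowest of all, with fold values by culture of 1.23, 1.41 and 2.15. The log2 fold change of 0.63 (SE 0.20; 1.55-fold, interval 1.12 to 2.14) did not pass (limma adjusted p = 0.107; 0.0884 with the replicate block). It passed in DESeq2 (0.0366) and in edgeR with the block (0.000704). The log2 fold change was 0.40 both without DMSO 3 (adjusted p = 0.112) and without culture 3 of both groups (0.139). Culture 3 of the DMSO group, low in Rnd3, was also low in astrocyte markers, and their part in the result was not tested.

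**Figure D2:**
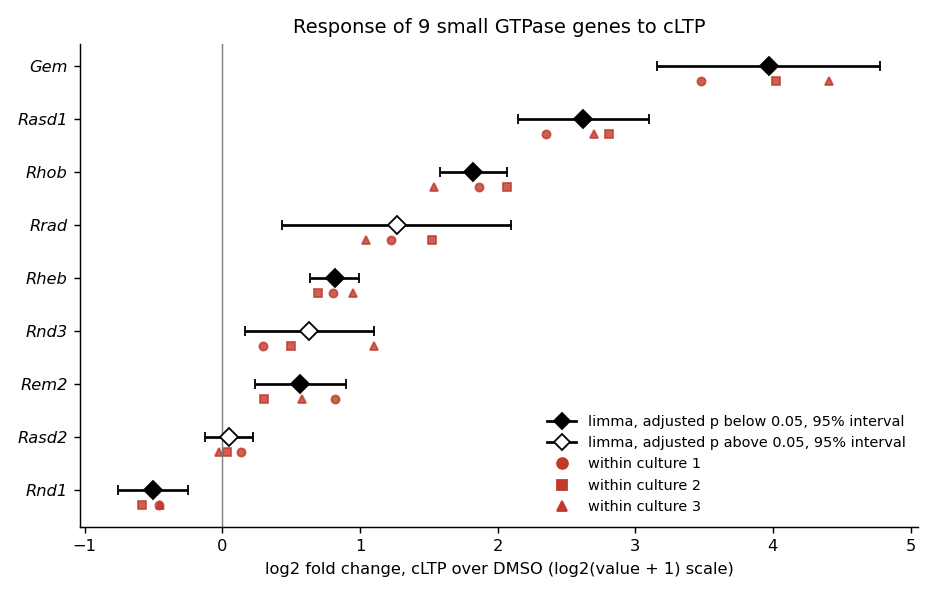
Log2 fold change of cLTP over DMSO (x axis, on the log2(value + 1) scale) for 9 genes; diamonds are the limma estimate with its 95% interval, filled where the adjusted p is under 0.05, and red markers the difference within each culture. Gem leads at 3.97, Rasd2 sits at 0.05, and Rnd1 is at -0.50; Rem1 is left out because its cLTP libraries held 0 reads.

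In 3 pairs of relatives, picked with their responses known, the estimates were unequal. Their difference is described here as a log2 ratio of the relatives' counts within each library. Other pairs, such as Gem with Rrad (log2 fold changes 3.97 and 1.27), were not compared. The ratio of Gem to Rem2 shifted by 3.40, from a range of -0.64 to 0.72 in DMSO to 3.19 to 4.14 in cLTP libraries. For Rasd1 against Rasd2 the shift was 2.57, from a range of -4.10 to -3.32 to one of -1.33 to -1.06. Rnd3 against Rnd1 shifted by 1.13, from 0.75 to 1.44 to 1.89 to 2.52. In each of these 3 pairs the groups did not overlap. How often the ratios of other gene pairs do so was not computed. The exact two-sided permutation p was 0.1 for each, with no adjustment over the 3. That is the smallest p that 3 against 3 libraries can give. This test could not reach 0.05 and takes no account of the culture numbers, so the shifts stand as a description.

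**Figure D3:**
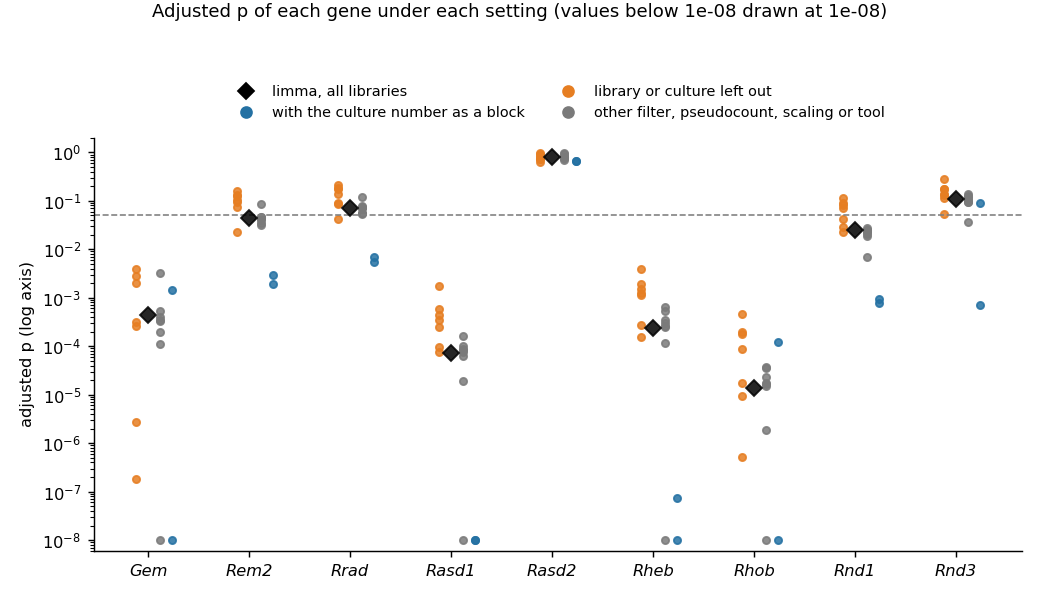
Adjusted p (y axis, log scale) of 9 genes in the limma fit of all libraries (black diamonds), with the culture number as a block (blue), with a library or culture 3 left out (orange) and with another filter, pseudocount, scaling or tool (grey); the dashed line is 0.05, and the lowest values are drawn at the bottom of the axis. Gem, Rasd1, Rheb and Rhob stay under the line in all 17 alternatives, Rasd2 in none, while Rem2, Rrad, Rnd1 and Rnd3 cross it.

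Over 9 lists of relatives, partners and regulators, 11 of 149 tested genes were higher and 6 lower, against 9 and 13 under equal totals and 24 and 22 with the block. Beside these stand 5.71% of all genes higher and 3.31% lower, and 12.9% and 10.7% with the block, so the lists' share without the block was near that of all genes. Of 14 calcium channel subunit genes tested, 0 passed in limma, edgeR and DESeq2. Before adjustment 2 were below 0.05 in limma, beside 3644 of all 17315 genes. Their median log2 fold change was -0.08 beside 0.0023 over all genes. Cacnb2, a beta subunit, was at 406 and 338 (adjusted p = 0.122), and Cacna1c, a pore subunit of L-type channels, at 1187 and 942 (0.155). Under equal totals 1 of the 14 was lower, beside 1322 of all 17315 genes. With the block 4 of the 14, Cacna1c among them (adjusted p = 0.00016), were lower, beside 10.7% of all genes. Of 9 genes for calmodulin and 14-3-3 proteins, which bind RGK proteins, 0 passed in limma and edgeR and 1 in DESeq2. In limma 1 was below 0.05 before adjustment, beside the same 3644 of all 17315 genes. With the block 3 were higher, beside 12.9% of all genes.

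Around Rheb, 4 of 19 genes of the mTORC1 pathway passed, 2 in each direction, beside 5.71% of all genes higher and 3.31% lower. Ddit4, which encodes an mTORC1 inhibitor, fell from 1354 ± 80.9 to 841 ± 25.3 (log2 fold change -0.68, limma adjusted p = 0.000558), and Sesn1, which encodes a sestrin that restrains mTORC1, fell from 379 ± 42.4 to 261 ± 43.7 (adjusted p = 0.0404). Rps6kb2, an S6 kinase gene downstream of mTORC1, rose from 334 ± 39.2 to 492 ± 48.2 (0.0152), and Eif4e, the cap-binding translation factor, rose 1.22-fold (0.0417). The genes for the RHEB inhibitors Tsc1 (770 and 668, adjusted p = 0.133) and Tsc2 (1807 and 1759, 0.825) and for the kinase Mtor (1619 and 1430, 0.226) did not pass. Sesn2, another sestrin gene, went the other way from Sesn1, from 3458 ± 307 to 4290 ± 233 without overlap. It missed the threshold (limma adjusted p = 0.0666, and 6.8e-05 with the block). Mlst8, also of this list, went from 411 to 328 and did not pass (0.0781, and 0.00386 with the block). In the block fit the counts were 3 higher and 6 lower, beside 12.9% and 10.7% of all genes. After scaling to equal totals 1 was higher and 4 lower, beside 823 and 1322 of all 17315 genes. Eif4e lost its call when any 1 library was left out (0.0545 to 0.167) and under equal totals (0.186), quantile normalization (0.177) and no filter on low values (0.0543). Sesn1 lost it without DMSO 1, 2 or 3 or cLTP 2 or 3 (0.0661 to 0.125) or culture 3 (0.112), and Rps6kb2 without DMSO 1, DMSO 2 or cLTP 1 (0.0676 to 0.0814).

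Other RAS family GTPases moved in both directions. Of 26 other RAS family genes tested, 5 rose and 1 fell, beside 5.71% and 3.31% of all genes (median log2 fold change 0.04). Rasl11b, a little-studied RAS-like gene, was at 159, 149 and 175 with DMSO, against 1070, 1331 and 976 after cLTP, far outside the control range (6.90-fold; log2 fold change 2.79, SE 0.12; limma adjusted p = 3.64e-06). Its relative Rasl11a rose from 83.3 ± 12.9 to 241 ± 60.6 (2.83-fold, 0.00119), Diras2, a neuronal RAS relative, from 1087 ± 72.4 to 2002 ± 157 (1.84-fold, 0.000282), and Rap2a from 888 ± 57.7 to 1417 ± 143 (1.59-fold, 0.00216). Mras rose 1.22-fold (0.0331), and Rap2b fell from 188 ± 24.3 to 121 ± 23.0 (0.0479). With the block the list had 7 higher and 2 lower, beside 12.9% and 10.7% of all genes. Both Mras and Rap2b lost their call when any 1 library was left out (0.0627 to 0.149 for Mras, 0.0523 to 0.16 for Rap2b), Mras also under equal totals (0.173) and quantile normalization (0.216), and Rap2b under quantile normalization (0.0599) and without culture 3 (0.054).

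Among 28 exchange factors and GTPase activators of RAS and RAP proteins, 2 rose and 0 fell in limma, beside 5.71% and 3.31% of all genes. Rapgef2, an exchange factor for RAP1 that responds to cyclic AMP in neurons, went from 1966 ± 121 to 3665 ± 697 (1.84-fold, limma adjusted p = 0.00281; 0.0595 with the block). Sipa1l2, a RAP GTPase activator, went from 883 ± 14.3 to 1655 ± 200 (1.86-fold, 0.000399). In the block fit the counts were 2 higher and 6 lower, beside 12.9% and 10.7% of all genes. Under equal totals, under quantile normalization and without culture 3 of both groups, 2 were lower. Of all 17315 genes, 1322, 799 and 571 were lower in these fits, respectively. Without culture 3 of both groups the 2 were Rapgef3 (adjusted p = 0.0375) and Rapgef5 (0.0332), exchange factor genes for RAP proteins. Of 8 Rasd1 partner genes tested, 0 passed in limma, edgeR or DESeq2. Nos1ap, also on this list, matched no row by gene symbol and could not be tested. Before adjustment 0 of the 8 were below 0.05 in limma, beside 3644 of all 17315 genes. With the block 1 was higher, beside 12.9% of all genes. The products of the 8 prenylation genes attach and process the lipid anchor of small GTPases. Of these genes, 0 passed in limma, with or without the block, in edgeR and in DESeq2. In limma 0 were below 0.05 before adjustment, beside 3644 of all 17315 genes.

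**Figure D4:**
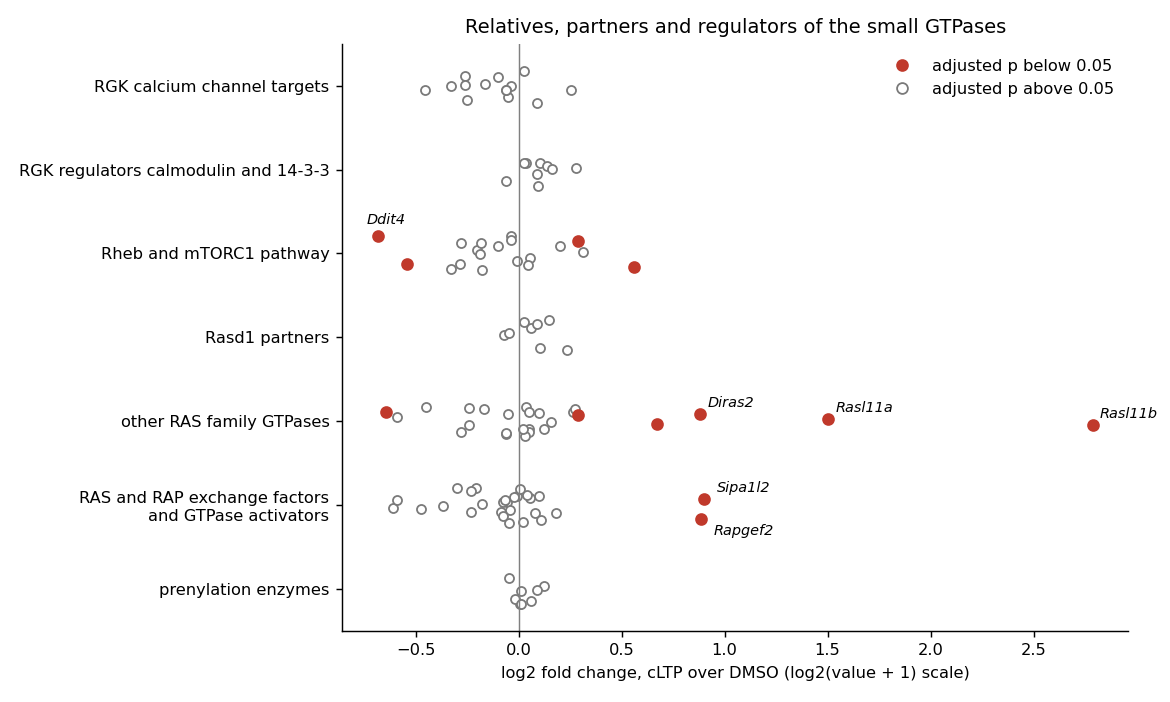
Log2 fold change of cLTP over DMSO (x axis) for each tested gene of 7 lists of relatives, partners and regulators (y axis, points spread vertically for visibility); filled red points have a limma adjusted p under 0.05. Rasl11b at 2.79 lies farthest to the right, and no calcium channel or prenylation gene is filled.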

How the data were processed

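The submitters' processing notes name rn6 as the build and list STAR, bcl2fastq and DESeq2. The counter, strand setting, annotation and versions were not given in the sources used here, so reads shared between overlapping genes may have been split in unknown ways. The deposited values are a signal, namely read counts that were divided by a factor per library and not by gene length. Dividing by what 1 read is worth returned whole reads for 100% of values (tolerance 0.01). A protocol text in the labels speaks of sorting and surgery; it disagrees with the culture labels and was set aside.

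As the deposited values are normalised, the main test was limma 3.58.1 (R 4.3.3; eBayes with trend and robust, no block) on log2(value + 1) over 17315 genes with a mean of at least 1, two-sided, Benjamini-Hochberg over all genes, threshold 0.05. Folds on this scale understate changes of low genes. edgeR 4.0.16 (called 1627 genes) and DESeq2 1.42.0 (1642) on recovered reads were alternatives. In all, 988 genes were higher and 573 lower; with equal totals, which shifted the median log2 change to -0.11, 823 and 1322; after quantile normalization 897 and 799. Scripts were tested on simulated data.

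After removing group means, same-numbered libraries correlated at 0.22, 0.30 and 0.54 across genes, each above 0.1. Culture numbers were therefore taken as pairs in the block fits and the folds by culture, but not in the main fit. The labels do not state this pairing. DMSO 1 with cLTP 2 (0.19) and DMSO 2 with cLTP 1 (0.16) were also above 0.1. Culture 3 against cultures 1 and 2 gave -0.37 to -0.29. The correlations thus set culture 3 apart and do not settle the pairing within cultures 1 and 2. No 2 replicates were duplicates: their chi-square divided by its degrees of freedom was 4.01 to 20.0. The 10 genes, the 9 related lists (157 genes, 152 in the table, 149 tested) and the markers were chosen with earlier results of these data known. The genes named were the 10, per list the 2 higher and 2 lower genes of lowest p (all where 4 or fewer passed), and the 5 genes most correlated with each of the 2 members of lowest p without the block. Others, named without passing or beyond that number (Cacnb2, Cacna1c, Tsc1, Tsc2, Mtor, Sesn2, Mlst8, Rasl11a, Rap2a, Mras, Rapgef3, Rapgef5, Olig2, Pdgfrb), were chosen after their values were seen. Nos1ap is named as a list gene that matched no row. The pooled numbers include 2 lists whose own results are not reported here.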

Additional observations from a re-analysis of the deposited data

How the results depend on the processing

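Of 166 re-estimates of single log2 fold changes, 148 kept direction and side of the threshold, 11 lost the call (Rem2 and Rnd1), 5 gained it (Rrad and Rnd3), and 2 reversed (Rasd2, to -0.067 under equal totals and -0.0031 under quantile normalization). Rem1 has no value with a mean of at least 10 or in edgeR, and no adjusted p in DESeq2. Leaving out 1 library gave 0 to 1 lower genes among the 10; Rnd1 was lost without DMSO 1, DMSO 2, cLTP 2 or cLTP 3. Over all genes the replicate block gave 2225 higher and 1850 lower, edgeR with the block 2130 and 1909, equal totals 1322 lower, and leaving out 1 library 227 to 471 lower. Over the related lists (11 higher, 6 lower) the replicate block gave 24 and 22, edgeR with the block 25 and 22, equal totals 13 lower, and leaving out 1 library 1 to 4 lower; the cause of these shifts was not tested. The fits without 1 library had fewer samples and no block. Depth limits Rem1 and Rrad.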

Other observations

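The genes most like Rhob and Rasd1 over the 6 libraries were found by Pearson correlation of log2(value + 1) among 14095 genes with a mean of at least 10, as a description; the 6 points share the 2 groups and their depth. With Rhob these were Cerk, a ceramide kinase gene (r = 0.9996, 1.28-fold), Dgcr6 (0.9991, 5.70-fold), Rasl11b (0.9990, 6.90-fold), Ndel1, whose protein works with the motor dynein (0.9986, 2.94-fold), and Cdk11b (0.9985, 2.25-fold). With Rasd1 they were Rasgef1b, an exchange factor gene of the RAS superfamily (0.9989, 2.99-fold), RGD1562699 (0.9987, 4.68-fold), AABR07003537.1 (0.9983, 1.93-fold), RF00478 (0.9981, 7.03-fold) and Ppig, a cyclophilin gene (0.9979, 1.94-fold). A high r here says that the libraries keep the same order and spacing, and it does not depend on the size of the change: Cerk and Rasl11b both correlate closely with Rhob and have very different folds.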
